A study of Mus musculus with 2 samples.

Results

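Pituicytes b are 1 of the 3 clusters of pituicytes, the glia of the neurohypophysis (NH), that the authors separated by single-cell RNA-Seq. The cluster held 55 of the 528 cells kept, 36 of 273 in pool 1 and 19 of 255 in pool 2. Its members were found from the deposited mean profiles of the 11 clusters. Each profile was solved by least squares as a weighted mean of the single cells, and a cell was given to the profile in which its weight was largest. Scaled so that 1 is a full member, this weight was at least 0.998 in all 55 cells, and none lay between clusters. Pituicytes a held 87 cells and pituicytes c 54, and pituicytes b made up 28.1% of the 196 pituicytes (95% Clopper-Pearson interval, 21.9 to 34.9). Their share of the pituicytes was 33.3% in pool 1 (24.6 to 43.1) and 21.6% in pool 2 (13.5 to 31.6).

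Both pools came from NH tissue of male C57BL/6 mice of 3 months, 5 mice per pool, with no treatment, and each pool was 1 library. The mice of a pool cannot be told apart. The tissue also held cells of the adjacent intermediate lobe. Each captured mRNA molecule carried a unique molecular identifier (UMI), and no barcode was found in the kept cells of both pools. A level is given as CPM, the UMIs of a gene per 1000000 UMIs in the summed cells of a cluster in 1 pool. The sums of pituicytes b held 58923 UMIs in pool 1 and 38168 in pool 2, where 1 UMI was worth 17.0 and 26.2 CPM. The clusters had been built from the genes of these same cells, so that every value of 1 cluster against another is a description, with no test. Intervals cover counting error only.

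Pituicytes surround the axons of the hypothalamic neurons that release oxytocin and vasopressin into the blood. They resemble astrocytes and tanycytes, the radial glia lining the ventricle floor of the hypothalamus. They are known to alter their shape when the demand for hormone changes, which exposes or covers the axon endings.

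Pituicytes b had the lowest median of UMIs per cell of the pituicyte clusters, with a median mitochondrial share above that of pituicytes a and below that of pituicytes c. The median cell of pituicytes b held 1393 UMIs in pool 1 and 1493 in pool 2. In pituicytes a the medians were 1731 and 2639 UMIs, and in pituicytes c they were 2350.5 and 3252. The median of pituicytes b was thus lowest in both pools, at 0.805 and 0.566 of pituicytes a and at 0.593 and 0.459 of pituicytes c. The single cells overlapped, since those of pituicytes b reached from 1006 to 4420 UMIs in pool 1 and from 1017 to 7025 in pool 2. Under 2000 UMIs were found in 39 of 55 cells (70.9%, 57.1 to 82.4), against 37 of 87 in pituicytes a and 16 of 54 in pituicytes c. Less RNA in a cell and less capture of it in a droplet cannot be told apart.

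Many cells of pituicytes b lay close to the lower limit of the study, which kept cells above 1000 UMIs. The smallest members held 1006, 1017 and 1028 UMIs, and 10 of 55 held under 1100, against 3 of 87 and 2 of 54 in pituicytes a and c. The cells also held few genes, with medians of 816 and 885 genes per cell, against 881.5 and 1318 in pituicytes a. When 1000 UMIs were drawn at random from every cell, the medians were 580 and 589 genes in pituicytes b, 596.5 and 631 in pituicytes a, and 570.5 and 600.5 in pituicytes c. At equal depth pituicytes b lay below pituicytes a in both pools, and above pituicytes c in pool 1 and below them in pool 2. Among cells of up to 2000 UMIs the order was turned in pool 1, with 589 genes in pituicytes b and 585 in pituicytes a, and kept in pool 2, with 553 and 623. No cell of pituicytes b was called a doublet (0 of 55), which Scrublet called in 5 of the 528 cells.

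The mitochondrial share, the percent of UMIs from the 13 genes of the mitochondrial genome, lay between those of the other clusters. Its median over cells was 17.4% and 16.1% in pituicytes b, 11.4% and 9.09% in pituicytes a, and 21.3% and 18% in pituicytes c. Only 1 of 55 cells of pituicytes b was under 10%, against 45 of 87 in pituicytes a and 3 of 54 in pituicytes c. The order a, b, c held in both pools, and the spread of single cells within pituicytes b (SD 2.76 and 2.94 percentage points) was smaller than the step to pituicytes a. The step to pituicytes c was larger than that spread in pool 1 and smaller in pool 2. The difference from pituicytes a was also present among cells of up to 2000 UMIs, where the summed share was 17.6% and 17.7% in pituicytes b (28 and 11 cells) and 10.5% and 9.36% in pituicytes a (21 and 16 cells). Among those cells the share in pituicytes c was 22.6% in pool 1 (13 cells), above pituicytes b, and 16.5% in pool 2 (3 cells), below them.

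**Figure D1:**
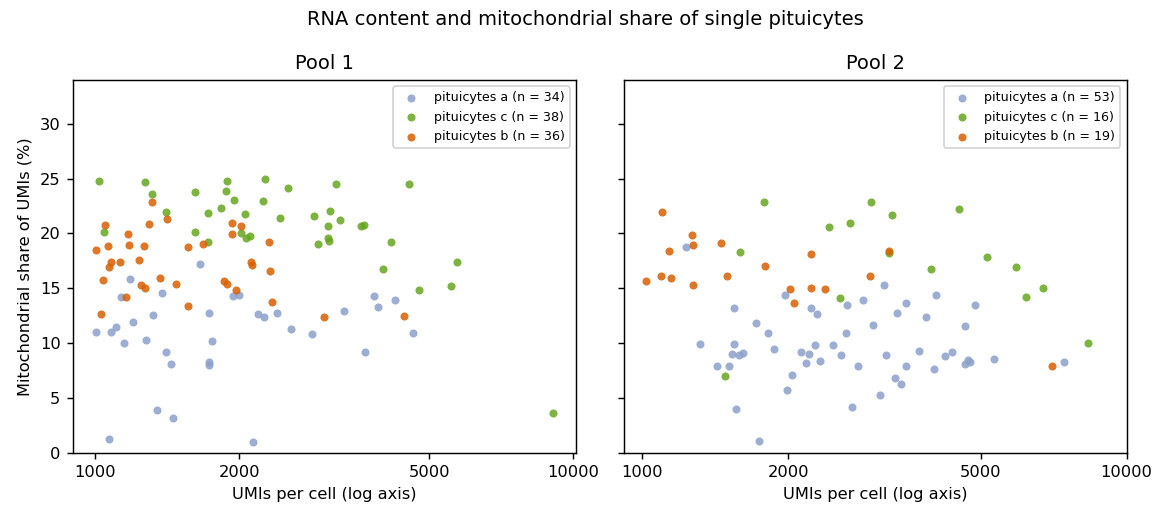
UMIs per cell (log axis) against the mitochondrial share of UMIs (%) for each pituicyte, with 1 panel per pool and 1 point per cell. The cells of pituicytes b lie mostly at few UMIs and at a share above 12%. Pituicytes a lie mostly lower, although 28 of 87 reach 12%. Pituicytes c lie mostly further right and, in pool 1, higher, while in pool 2 their shares overlap with those of pituicytes b.

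The 13 mitochondrial genes encode subunits of the respiratory chain and of ATP synthase. Their summed level was 168831 and 151593 CPM in pituicytes b, 112212 and 97153 in pituicytes a, and 191278 and 167410 in pituicytes c. Of the 13 genes, 11 were higher than in pituicytes a in both pools and 1, *mt-Nd6*, was lower. Over all 3910 genes with at least 20 UMIs in the pituicytes, 17.1% were higher than in pituicytes a in both pools and 33.9% were lower. Against pituicytes c, 1 mitochondrial gene was higher in both pools (*mt-Nd3*, but not under TMM, a scaling by the bulk of the genes) and 9 were lower, while 22.0% and 26.0% of all genes were. The clusters were built from these same cells, so the counts are not read against these shares. The most abundant, *mt-Co3* (a subunit of cytochrome c oxidase), was at 41122 and 37256 CPM, against 25695 and 22140 CPM in pituicytes a. Its log2 ratio was 0.68 and 0.75 to pituicytes a, and -0.03 and -0.03 to pituicytes c, whose pools overlapped with pituicytes b. The count of 11 genes was the same under the other 3 scalings tried. The 85 nuclear genes of the same complexes did not follow: their summed level of 21163 and 32514 CPM lay below that of pituicytes a in pool 1 (24856) and above it in pool 2 (28506). Under TMM it lay below in both pools (21111 and 28351 against 23645 and 29944).

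Most of the cells held UMIs of the genes of pituicytes. Of the 6 pituicyte genes described below, 2 of 55 cells held no UMI (3.64%, 0.443 to 12.5), both in pool 2, and 4 more cells held 1 UMI. The 2 cells with none held 12 and 15 UMIs of the 5 marker genes named for the cluster, so they are not shown to lack pituicyte genes. Of the 4 cells with 1 UMI, 2 held 29 and 13 UMIs of these markers and the other 2 held 2 and 4. With all cells, none of the 5 marker genes named for the cluster lay apart from the pools of both pituicytes a and c. *Ptn*, which encodes the secreted growth factor pleiotrophin, was at 3564 and 5423 CPM, against 5078 and 4766 in pituicytes a and 3615 and 4683 in pituicytes c. *Dbi*, the acyl-CoA binding protein, was at 815 and 1651 CPM, against 1100 and 1239 and against 1152 and 892. For both genes the 2 pools of pituicytes b enclosed those of pituicytes a, and the larger difference was that between the pools. *Mt3*, a brain metallothionein that binds zinc and copper, was at 594 and 707 CPM, above both pools of pituicytes a (463 and 479) and within the range of pituicytes c (567 and 1019). *Srebf1*, a transcription factor of fatty acid synthesis, was at 866 and 445 CPM, with pituicytes a at 940 and 452. *Dio2*, the deiodinase that activates thyroid hormone, was at 102 and 78.6 CPM from only 6 and 3 UMIs, and its intervals (37.4 to 222 and 16.2 to 230 CPM) covered the levels of the other clusters. Without the cells of over 1% *Pomc* described further on, *Dio2* was at 110 and 99.8 CPM. That was above both pools of pituicytes a (57.9 and 52.4) and c (47.4 and 79.6). In the deposited means, *Dio2* ranked first of the 11 clusters in pituicytes b, *Ptn*, *Mt3* and *Srebf1* ranked second, and *Dbi* was at rank 3.

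Of the 6 genes that the study used as pituicyte genes, all were measured in pituicytes b in both pools. Their sum was 5923 and 5057 CPM, below the 7060 and 6274 CPM of pituicytes a in both pools. Without 3 cells rich in *Pomc*, described further on, the sum was above that of pituicytes a in pool 2 (6290 against 6274 CPM) and below it in pool 1 (6385 against 7060 CPM). The sodium channel gene *Scn7a* was at 1595 and 1415 CPM, against 2040 and 1606 in pituicytes a, and at 1731 CPM in pool 2 without those 3 cells, which is above pituicytes a. The collagen gene *Col25a1* was at 1460 and 1572 CPM, below both pools of pituicytes a (1968 and 1796), and at 1997 CPM in pool 2 without those 3 cells. *Col13a1*, another collagen gene, was at 1273 and 1100 CPM. *Rax*, a homeobox factor of the hypothalamic floor and of tanycytes, was at 407 and 341 CPM, above both pools of pituicytes a (304 and 288) and of pituicytes c (307 and 255). Under TMM its log2 ratio to pituicytes a in pool 2 was -0.02 in place of 0.18. *Adm*, which encodes the vasodilator adrenomedullin, was at 322 and 183 CPM, below both pools of pituicytes a (651 and 695), with log2 ratios of -0.83 and -1.49 after 100 CPM were added. Pituicytes c were at 381 and 271 CPM, so that their pools overlapped with pituicytes b. A cell of pituicytes b held a median of 9 and 7 UMIs of the 6 genes, against 13.5 and 17 in pituicytes a. Once each cell was thinned to 1000 UMIs, the medians were 7 and 6 UMIs, against 5 and 7 in pituicytes a and 5.5 and 5.5 in pituicytes c.

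Among other glial genes, the lipid carrier gene *Apoe* was at 1765 and 1939 CPM in pituicytes b, against 2329 and 2203 in pituicytes a and 2128 and 2214 in pituicytes c. Without the 3 *Pomc*-rich cells it was at 1780 and 2463 CPM, the latter above both other clusters. *Gja1*, the gap junction protein connexin 43, was at 730 and 472 CPM, and its pools overlapped with those of both other clusters. *Vegfa*, an angiogenic factor, was at 441 and 210 CPM, below pituicytes a (506 and 715) in both pools. *Vim*, an intermediate filament gene, was at 67.9 and 52.4 CPM, and pituicytes a were on both sides of this (174 and 26.2). *Gfap*, the filament of reactive astrocytes, had 17.0 CPM in pool 1 and no UMI in pool 2, and *S100b* had no UMI in any pituicyte cluster. With no UMI, a level of up to 50.9 CPM in pool 1 and 78.6 CPM in pool 2 cannot be told from 0.

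**Figure D2:**
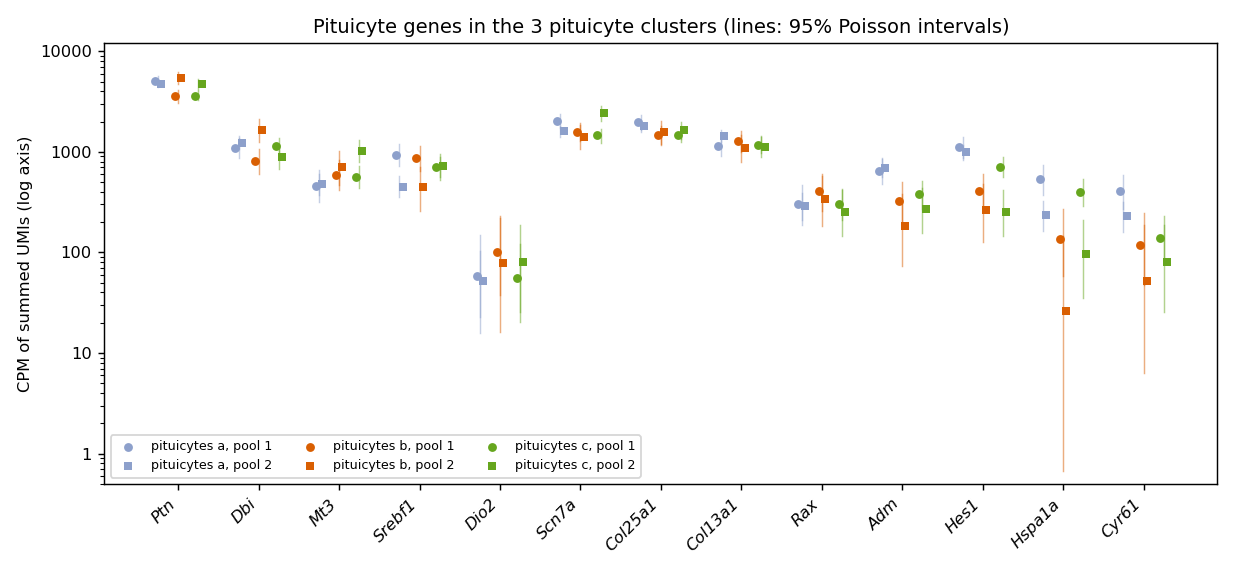
Levels in CPM (log axis) of 13 genes in the 3 pituicyte clusters, with 1 point per pool and 95% Poisson intervals as lines. In pituicytes b *Adm*, *Hes1*, *Hspa1a* and *Cyr61* lie below both pools of pituicytes a, as do *Scn7a* and *Col25a1* by less, while *Mt3*, *Dio2* and *Rax* (under TMM not in pool 2) lie above both and *Ptn*, *Dbi*, *Srebf1* and *Col13a1* overlap.

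In the deposited means, pituicytes b were most like the other pituicytes. Across the 15025 genes of the table, the correlation of log2(CPM + 100) was 0.932 with pituicytes a and 0.929 with pituicytes c, and 0.807 with the next cluster, named neural progenitor a. Between their own 2 pools, the summed profiles of pituicytes b had a correlation of 0.819 over the 3910 genes, lower than that of pituicytes a (0.902) and c (0.895). It was also lower than that of either pool of pituicytes b with the pituicytes a of its own pool (0.874 and 0.872). Genes are not independent replicates, and the smaller sums of pituicytes b carry more counting error.

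Few genes differed in level by a large factor in both pools. A gene was taken as higher or lower if its CPM, with 100 CPM added, differed at least 2-fold in the same direction in both pools. Against pituicytes a, 1 gene was higher (0.0256% of the 3910 genes) and 3 were lower (0.0767%). Against pituicytes c, 1 gene was higher (0.0256%) and 1 was lower (0.0256%). Both comparisons use the same cells of pituicytes b. The median log2 ratio of all these genes was -0.07 and -0.10 against pituicytes a, and 0.00 and -0.05 against pituicytes c.

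The gene that was higher in both comparisons was *Pomc* (ENSMUSG00000020660, chr12:3954951-3960642, plus strand, GRCm38), which encodes the precursor of melanocyte-stimulating hormone. It is the main product of the melanotropes of the intermediate lobe. Its level was 13849 and 19309 CPM in pituicytes b, against 376 and 269 in pituicytes a and 1041 and 191 in pituicytes c. The level came from 3 of the 55 cells, in which *Pomc* took 17.7% of 4420 UMIs (pool 1), 9.05% of 7025 UMIs and 7.30% of 1096 UMIs (both pool 2). The next cell was at 0.705%, and 25 of 55 cells held no UMI of *Pomc*. In the other 52 cells *Pomc* was at 642 and 699 CPM, below the 961 and 818 CPM in the immune cells of the same pools, which should lack the gene, and above the 376 and 269 CPM of pituicytes a. In pool 1, 15 of the 35 UMIs lay in 1 cell. The source of this remainder was not tested.

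The 3 cells rich in *Pomc* held 781, 636 and 80 UMIs of it but only 1, 1 and 3 UMIs of the 6 pituicyte genes. They also held 17, 34 and 9 UMIs of the 9 other melanotrope markers, among them *Pcsk2*, a prohormone convertase, and the granule protein genes *Scg2* and *Chga*. In the other 52 cells of pituicytes b these 9 markers summed to 5 UMIs, 3 in pool 1 and 2 in pool 2. The cells of 7025 and 4420 UMIs were the largest of pituicytes b, and the larger was its single cell under 10% mitochondrial UMIs. In the 2 large cells the profile goes against the name pituicyte. The third cell held 1096 UMIs in all, and members under 1100 UMIs held between 0 and 11 UMIs of the 6 genes, so that its 3 UMIs of them do not set it apart. Without cells of over 1% *Pomc*, these 3 and 1 of pituicytes c, no gene was higher in pituicytes b than in pituicytes a or c by the same rule. The median of the remaining cells was still lower than in pituicytes a and c, at 0.678 and 0.511 as the means of the ratios in the pools. The summed mitochondrial share was then 16.9%, against 16% with them, both as means of the pools.

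**Figure D3:**
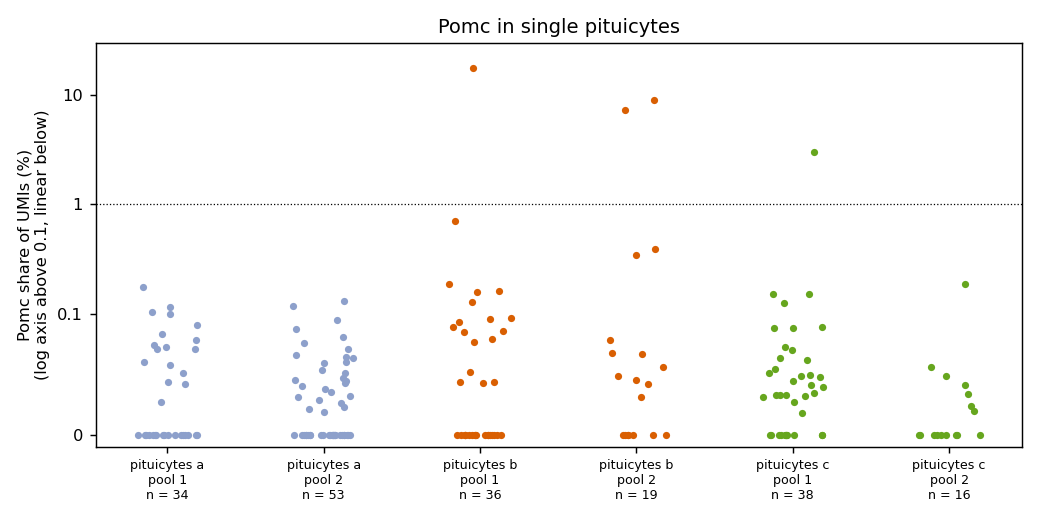
Share of UMIs from *Pomc* in each pituicyte (%, log axis above 0.1 and linear below), by cluster and pool, with 1 point per cell and a dotted line at 1%. In pituicytes b 3 of 55 cells lie above the line, at 17.7, 9.05 and 7.30%, and in pituicytes c 1 of 54 cells lies there, at 3.00%.

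The genes lower in pituicytes b than in pituicytes a were *Hes1*, *Hspa1a* and *Cyr61*. *Hes1* (ENSMUSG00000022528, chr16:30064384-30067796, plus strand) encodes a repressor that acts downstream of Notch and keeps glia and progenitors undifferentiated. It was at 407 CPM (95% Poisson interval, 261 to 606) and 262 CPM (126 to 482) in pituicytes b, and at 1114 and 990 CPM in pituicytes a. The log2 ratio was -1.26 in pool 1 and -1.59 in pool 2. In the thinned cells 27.8% and 10.5% of pituicytes b held a UMI, against 44.1% and 41.5% of pituicytes a. In pituicytes c the level was 706 CPM in pool 1, above pituicytes b, and 255 CPM in pool 2, next to them. A single cell of pituicytes a held 19 of the 77 UMIs of *Hes1* in pool 1 and another 35 of 151 in pool 2. Without these cells the *Hes1* log2 ratio was -0.91 and -1.28, so that the rule was missed in pool 1.

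*Hspa1a* (chr17:34969190-34972156, minus strand), the heat-induced chaperone, had 8 and 1 UMIs in pituicytes b, or 136 and 26.2 CPM, against 535 and 236 CPM in pituicytes a. Its near-identical neighbour *Hspa1b* can share reads with it, so that its level is uncertain. *Cyr61* (chr3:145646976-145649981, minus strand), a secreted matrix protein induced by serum and stretch, had 7 and 2 UMIs in pituicytes b, or 119 and 52.4 CPM, against 405 and 229 CPM in pituicytes a. The log2 ratios of *Cyr61* were -1.21 and -1.11. In pituicytes c *Cyr61* was at 139 and 79.6 CPM, near pituicytes b, with log2 ratios of -0.13 and -0.24. *Hspa1a* was at 400 and 95.6 CPM there. In pituicytes a 1 cell held 12 of 37 UMIs of *Hspa1a* in pool 1 and 9 of 36 in pool 2, and 1 cell held 9 of 28 and 7 of 35 UMIs of *Cyr61*. Without the highest cell of each pool the log2 ratio was -1.03 and -1.15 for *Hspa1a*, still past the rule, and -0.81 and -0.91 for *Cyr61*, which then missed it. *Hspa1a* missed the rule with 200 CPM added and among cells of up to 2000 UMIs, and *Cyr61* with 200 CPM added and in thinned cells. Without the 3 *Pomc*-rich cells *Hes1* and *Hspa1a* were still below by the rule and *Cyr61* was not, while *Rsrc2* was then added, at 73.4 and 99.8 CPM against 376 and 328.

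Against pituicytes c, the lower gene was *Cd52*, a surface protein of leukocytes, with 1 UMI in each pool of pituicytes b. Pituicytes c held 16 and 10 UMIs of it, 15 and 9 of them in a single cell of each pool. Without the *Pomc*-rich cells *Cd52* did not pass. *Pbrm1*, a subunit of a chromatin remodelling complex, then did, at 36.7 and 33.3 CPM against 189 and 191.

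Some genes chosen after their values were seen lay close to the 2-fold line. *Mcc*, next to *Pomc* against pituicytes a, was at 119 and 210 CPM, but 5 and 7 of its 7 and 8 UMIs came from 1 cell in each pool, and the level was 36.7 and 33.3 CPM without the *Pomc*-rich cells. *Isg15*, an interferon-induced gene, was at 136 and 183 CPM against 28.9 and 13.1 in pituicytes a, with 7 and 5 of its 8 and 7 UMIs from 1 cell per pool. In pituicytes c *Isg15* was at 149 and 47.8 CPM, above pituicytes b in pool 1. *Ifit1*, induced in the same way, was lower than in pituicytes c in both pools, by a log2 ratio of -1.46 in pool 2, and just missed the 2-fold rule in pool 1. The transcription factor gene *Foxp1* had no UMI in either pool of pituicytes b, and was at 174 and 78.7 CPM in pituicytes a.

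The groups of glial genes held few members past the 2-fold rule, and the direction of some sums depended on the 3 *Pomc*-rich cells, which held 8121 of the 38168 UMIs of pool 2. Counts of members are given beside the 17.1% of all genes that were higher than in pituicytes a in both pools and the 33.9% lower. Nothing is read from these counts, since the clusters were built from these same cells. Among the tanycyte genes 19 of 20 reached 20 UMIs, of which 2 were higher and 9 lower, with none past the 2-fold rule. Their summed level was 14494 and 15615 CPM, against 18591 and 18488. Without the *Pomc*-rich cells it was 15596 and 19004 CPM, below pituicytes a in pool 1 and above them in pool 2. *Mest* and *Igfbp5*, abundant members, were at 2851 and 2122 CPM and at 1969 and 1624 CPM.

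The secreted and matrix genes summed to 13492 and 15170 CPM, against 17593 and 16783 in pituicytes a, with 1 of 17 measurable genes higher and 7 lower, of which *Cyr61* passed the 2-fold rule. Without the *Pomc*-rich cells the sum was 14403 and 18405 CPM, above pituicytes a in pool 2. The 25 astroglial genes lay on both sides of pituicytes a with all cells, at 10607 and 12052 CPM against 11777 and 11368, with 2 of 18 measurable genes higher and 5 lower. Under TMM their sum was below pituicytes a in both pools (10581 and 10509 against 11203 and 11942).

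The glial transcription factors were below pituicytes a in both pools with and without the *Pomc*-rich cells, also under the other totals tried. They summed to 6449 and 4926 CPM (6679 and 5625 without those cells), against 7827 and 6530. With totals that leave out the mitochondrial genes as well, the sums without those cells were 8070 and 6744, against 8816 and 7232. Of 15 measurable genes 2 were higher and 10 lower, and *Hes1* passed the rule. *Hes1* is part of these sums, at 440 and 333 CPM without those cells, against 1114 and 990 CPM in pituicytes a. No sum was taken without *Hes1*, so the direction of the other members as a group is not known. *Zbtb20* was at 1103 and 1048 CPM and *Nfib* at 475 and 262 CPM, the latter against 796 and 656 in pituicytes a. Channels and transporters summed to 5685 and 3668 CPM, against 6134 and 5789, and to 6128 and 4393 without those cells. With totals that leave out the mitochondrial genes as well, the sum in pool 1 was above pituicytes a (7405 against 6910). Among them the glutamate transporter gene *Slc1a3* was at 849 and 419 CPM, against 1056 and 813.

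The sums of stress and early response genes moved with the *Pomc*-rich cells of pool 2. Immediate early genes summed to 3852 and 3956 CPM, against 3848 and 3468 in pituicytes a, and to 3633 and 998 without those cells. *Fos* was at 662 and 1048 CPM, and 32 of the 40 *Fos* UMIs of pool 2 lay in 1 cell. *Jun* was at 713 and 52.4 CPM. Heat shock genes summed to 2987 and 4113 CPM, against 4181 and 3265, and to 2862 and 2296 without the *Pomc*-rich cells, below pituicytes a in both pools, also with the mitochondrial genes left out of the totals. The 3 metallothioneins summed to 3666 and 5554 CPM, against 3660 and 3612, and to 3413 and 4227 without those cells.

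The groups of general cell functions gave no common direction against pituicytes a, and that of several depended on the totals used. Under TMM the ribosomal and translation factor sums were below pituicytes a in both pools. With totals that leave out the mitochondrial genes, the ribosomal sum was above pituicytes a in both pools (107892 and 179421 against 107491 and 146355). It was also above with ribosomal genes and *Malat1* left out as well (145013 and 227193 against 143729 and 193794). Cytosolic ribosomal protein genes summed to 89676 and 152222 CPM, against 95430 and 132136, with 28 of 78 higher and 10 lower in both pools, beside 17.1% and 33.9% of all genes. Against pituicytes c, at 126974 and 150064 CPM, 3 were higher and 38 lower, beside 22.0% and 26.0% of all genes. Translation factors summed to 7892 and 11214 CPM, against 8854 and 10509 in pituicytes a, and to 7889 and 10284 without the *Pomc*-rich cells. The genes of protein entry and folding in the endoplasmic reticulum summed to 5346 and 5371 CPM, against 5295 and 5966, and to 5156 and 5791 without those cells. With the mitochondrial genes also left out of the totals they were at 6230 and 6943, against 5965 and 6608, so that the direction turned in both pools. Lysosome genes were at 4260 and 4873 CPM, against 4413 and 4609, and at 4458 and 5325 without the *Pomc*-rich cells. Fatty acid and sterol genes were at 3055 and 3720 CPM, against 3646 and 3062, and cytoskeleton genes at 6568 and 7362 CPM, against 6409 and 7861. Genes of thyroid hormone handling summed to 611 and 865 CPM, against 694 and 951, and to 624 and 1065 without those cells, above pituicytes a in pool 2. Genes of apoptosis and of the p53 response summed to 339 and 341 CPM, against 391 and 262, and only 3 of 12 reached 20 UMIs.

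**Figure D4:**
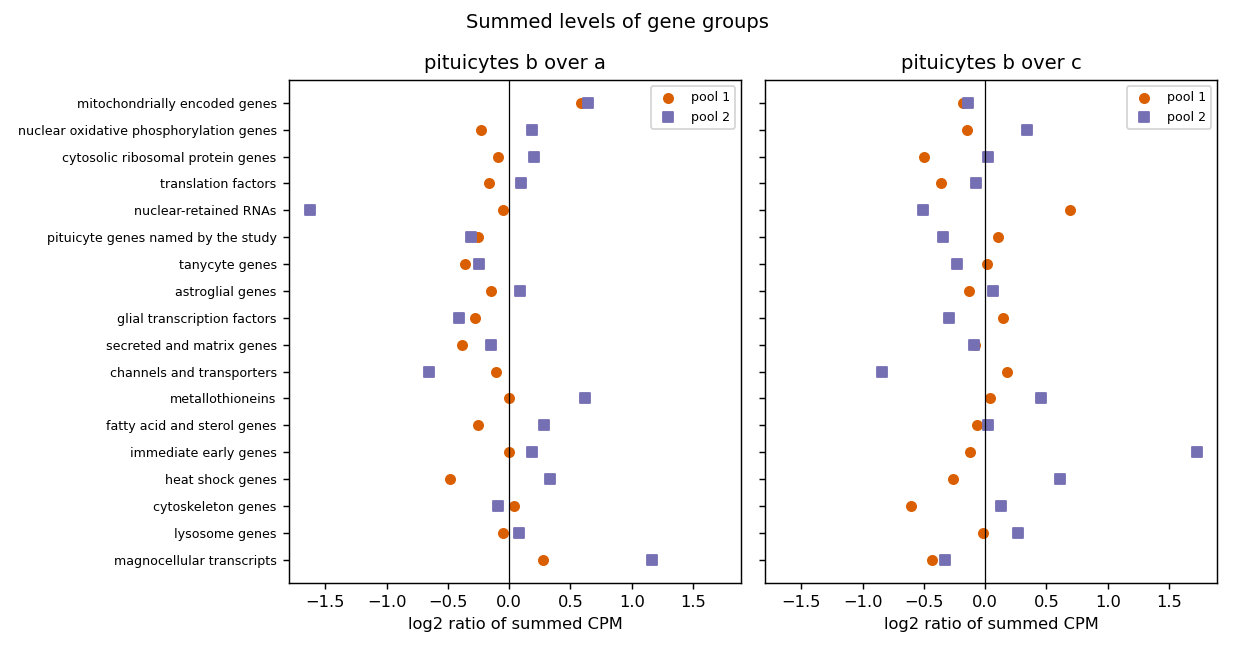
Log2 ratio of the summed CPM of 18 gene groups in pituicytes b over pituicytes a (left) and over pituicytes c (right), with 1 point per pool. The mitochondrial genes lie above 0 in both pools against pituicytes a and below 0 in both pools against pituicytes c, while many other groups lie on both sides of 0. All cells are included, the *Pomc*-rich ones too.

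The pools of pituicytes b differed widely in *Malat1*, a long noncoding RNA that stays in the nucleus (ENSMUSG00000092341, chr19:5795690-5802672, minus strand). Its summed level was 123093 CPM in pool 1 and 26174 in pool 2, against 128402 and 88873 in pituicytes a and 75781 and 40252 in pituicytes c. The median share per cell was 9.75% in pool 1, where cells reached from 0 to 36.7%, and 0.0912% in pool 2, where they reached from 0 to 8.52%. No UMI of *Malat1* was found in 2 of 36 and 8 of 19 cells of pituicytes b, in 0 of 87 cells of pituicytes a and in 3 of 54 cells of pituicytes c. A limit of 1%, set after the values were seen, put 17 of 55 cells below it, 5 in pool 1 and 12 in pool 2, with 8 cells between 0.5 and 2%. In pituicytes a 5 of 87 cells were below it, and in pituicytes c 6 of 54.

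Cells of pituicytes b with little *Malat1* had much ribosomal protein mRNA. The median share of the ribosomal protein genes was 19.7% in the 5 cells of pool 1 below 1% and 5.53% in the other 31. In pool 2 it was 19.3% in 12 cells and 11.1% in the other 7. Both shares have the same total, and the correlation over cells was -0.54 (Spearman -0.62) in pool 1 and -0.51 (Spearman -0.70) in pool 2. The same sign was seen in both pools of pituicytes a (-0.62 and -0.50) and c (-0.28 and -0.77). The low-*Malat1* cells of pituicytes b also had more mRNA of the nuclear respiratory genes, at 42568 and 39816 CPM against 17436 and 26522 in the other cells. The same direction was seen in pituicytes a (46482 and 43061 against 22726 and 28001 CPM) and in pituicytes c (33060 and 32935 against 22875 and 24597 CPM). In pituicytes b *Ptn* was at 7095 and 7324 CPM against 2949 and 3864, and *Dbi* at 2060 and 2383 CPM against 598 and 1049. The 6 pituicyte genes went the other way, at 4463 and 4592 CPM against 6177 and 5438. So did *Scn7a*, 1 of them, at 1259 and 1221 CPM against 1654 and 1574. In pituicytes a and c *Dbi* was higher in the low-*Malat1* cells of both pools, and *Ptn* in pool 1 only. *Meg3*, another nuclear RNA, was at 801 and 581 CPM against 5101 and 5486 in pituicytes b. The mitochondrial share was nearly the same in both kinds of cell in pool 1, with medians of 17.3% and 17.4%, and 16.6% and 15% in pool 2. The 3 *Pomc*-rich cells are among these cells, 1 of them, of 1096 UMIs, below the limit. That of 7025 UMIs was among the 7 cells of pool 2 at 1% or more. It held only 1 UMI of the 6 pituicyte genes and 4 of the 5 markers, but 59 of *Meg3*. The levels of those 7 cells were not taken without it, so the size of the differences in pool 2 is uncertain. The part of such cells in the levels of pituicytes b and in the difference between its pools was not tested.

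**Figure D5:**
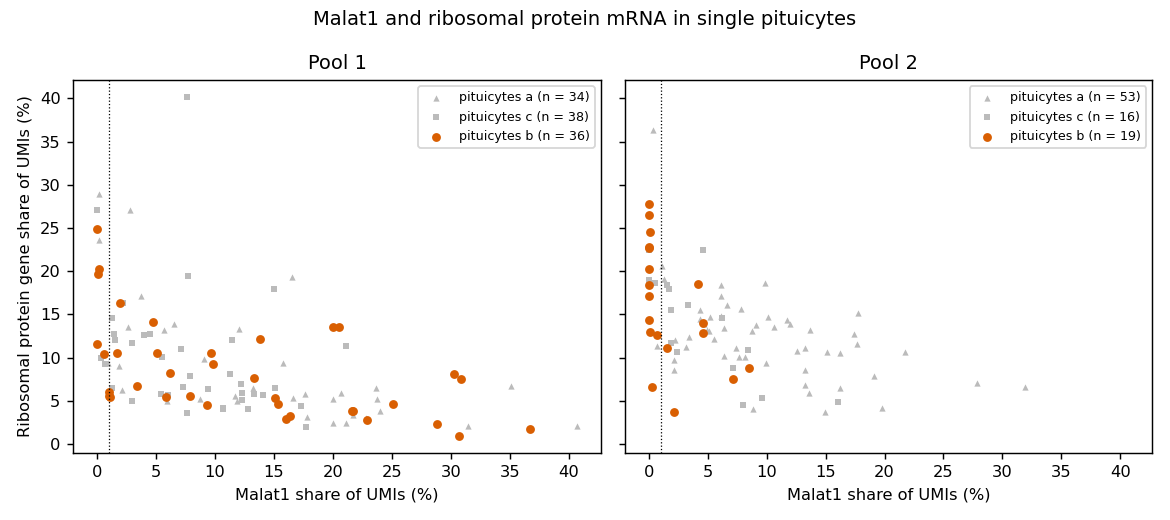
Share of UMIs from *Malat1* (%) against the share from ribosomal protein genes (%) for each pituicyte, with 1 panel per pool and a dotted line at 1% *Malat1*. The 19 cells of pituicytes b in pool 2 lie between 0 and 8.52% *Malat1* and 12 of them lie left of the line, while those of pool 1 reach 36.7%.

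Apart from the melanotrope genes of the 3 cells, markers of other cell types were low in pituicytes b. The 10 microglia markers summed to 322 and 288 CPM, with 116 and 131 CPM in pituicytes a and 1050 and 1163 in pituicytes c, and none of the 10 was at 0 in pituicytes b. Endothelium markers summed to 424 and 341 CPM, almost all of it *Pecam1* (424 and 314 CPM), while *Emcn*, *Flt1*, *Plvap*, *Cldn5*, *Kdr* and *Cdh5* had no UMI. *Pecam1* was at a like level in pituicytes a (333 and 511 CPM). All 8 pericyte markers had no UMI, and among the T cell markers *Ccl5* had 1. Epithelial markers summed to 102 and 78.6 CPM, of which *Epcam* made 50.9 and 52.4, from 1 cell in each pool and 0 without the *Pomc*-rich cells. Erythrocyte markers summed to 153 and 52.4 CPM, and oligodendrocyte markers to 153 and 183 CPM. VLMC markers, of the fibroblast-like cells around vessels, summed to 50.9 and 105 CPM, and the hormones of the anterior lobe to 102 and 157. Proliferation markers summed to 33.9 and 105 CPM, against 43.4 and 59 in pituicytes a, with no UMI of *Mki67* and *Cdk1*. The neuronal transcripts *Oxt* and *Avp* summed to 577 and 838 CPM, against 477 and 374 in pituicytes a and 781 and 1051 in pituicytes c. Their part in the levels of pituicytes b was not tested.

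The genes whose deposited mean was most above that of every other cluster had few molecules behind them. Of 3234 genes with a deposited mean of at least 0.5 UMIs per 10000 in pituicytes b, 536 were highest there of the 11 clusters. The 10 with the largest ratio to the next cluster were *Cacna2d3*, *Top1mt*, *Sbsn*, *Gramd4*, *Trmt10b*, *Gm43263*, *Ccdc106*, *Arel1*, *Lrch2* and *Ctns*. *Cacna2d3*, a calcium channel subunit, led with 0.543 against 0.0375 UMIs per 10000, from 3 UMIs in 1 cell. *Gramd4* and *Arel1* had the most UMIs of the 10, 8 each in 7 cells, and the other 7 genes had between 4 and 7 UMIs. *Pomc* was at rank 3 of the 11 clusters in pituicytes b, with 68.1 UMIs per 10000, after both clusters named neural progenitor.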

How the data were processed

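Dissociated NH cells of 2 pools were sequenced with 10x droplets. The deposited matrices hold raw UMI counts, which the authors made with Cell Ranger (1.2.1, 2.0.0 and 2.1 are listed in the submitters' processing notes, with STAR 2.5.1b and mm10), forcing 1500 cells. The matrix of pool 2 holds 1500 barcodes, and that of pool 1 is unfiltered, with 737280 barcodes listed and 170936 with a UMI. They also deposited mean values per cluster, made with Seurat 2.3, which are a signal of UMIs scaled to 10000 per cell and averaged over both pools (15025 genes, 11 clusters). No column of other samples was present.

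The limits on cells were those of the study: between 1000 and 10000 UMIs, between 400 and 5000 genes, under 25% mitochondrial UMIs. Doublets were not removed. Totals per cell are given in the report. The membership step was checked on means rebuilt from shuffled memberships of the same cells. Those means match the cells exactly, unlike the deposited ones. The fold rule was checked on simulated counts. It is log2 of the ratio of (CPM + 100) of at least 1 in the same direction in both pools, for genes with at least 20 UMIs. Intervals are exact at the 95% level, and the limit for no UMI is 3 counts. With all *Pomc* of immune cells taken as free RNA, free RNA was 6.10% and 5.19% of UMIs (pools 1 and 2). Its profile came from pool 1 barcodes of 1 to 50 UMIs, where *Pomc* was at 15746 CPM. In pool 2 barcodes of 100 to 300 UMIs *Pomc* was at 29032 CPM, and with that level the share in pool 2 would be lower. TMM factors came from edgeR 4.0.16 (R 4.3.3). Other tools were Python 3.11.15, scipy 1.17.1 and scanpy 1.11.5. Gene positions are from GENCODE (GRCm38, the build of the counts).

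The members and the gene lists were chosen with earlier results of these data known. Named genes were taken from the 5 markers, the pituicyte genes of the study, those past the fold rule, the 10 most above the other clusters in the deposited means, and the 4 most abundant members of each list, and genes named outside this rule are given as such or as defining markers. The sequences of genes were not used here.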

Additional observations from a re-analysis of the deposited data

Results flagged for a closer look

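Barcodes outside the limits of the study also held pituicyte genes, in droplets that no comparison above uses. The 6 pituicyte genes were at 2118 CPM in 37 pool 1 barcodes of 801 to 1000 UMIs that met the limits on genes and mitochondrial share, and at 1166 CPM in the 21 such barcodes of pool 2. In the 56 and 27 barcodes that missed only the mitochondrial limit of 25%, they were at 5218 and 2601 CPM. The level in free RNA was 799 CPM among pool 1 barcodes of 1 to 50 UMIs and 608 CPM among pool 2 barcodes of 100 to 300 UMIs. Pituicytes b were at 5923 and 5057 CPM.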

How the results depend on the processing

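The number of members did not depend on the way membership was solved, with 55 cells under each of 3 other settings. With a mitochondrial limit of 10% pituicytes b were 1.32% of the pituicytes (mean of pools, against 27.5%), since 1 cell was left, so that no ratio of UMIs or gene count could be given there. The share was 21.6% to 33.3% when a pool was left out. The ratio of median UMIs to pituicytes a lay between 0.566 and 0.805 and that to pituicytes c between 0.459 and 0.593 over the settings that gave one. The genes per cell were 850.5 unthinned and 571 in cells of up to 2000 UMIs, where the mitochondrial share was 17.6%. The counts of genes past the fold rule (1 higher and 3 lower than a, 1 higher and 1 lower than c) depended on the settings, given here in this order. They were 1, 3, 1 and 2 with TMM; 2, 3, 1 and 3 with totals without mitochondrial genes; 5, 7, 6 and 6 without those, ribosomal genes and *Malat1*. They were 6, 33, 11 and 13 with 50 CPM added and 1, 1, 1 and 0 with 200; 17, 59, 21 and 23 at 1.5-fold; 2, 4, 1 and 0 as a mean of cells. With cells thinned they were 8, 13, 15 and 7, and with free RNA subtracted 3, 3, 2 and 2. Without the *Pomc*-rich cells they were 0, 3, 0 and 1, and with cells of up to 2000 UMIs 3, 10, 28 and 9, both chosen after seeing the data, as was leaving out the cell of pituicytes a with most UMIs of a gene. With 1 pool left out they were 10 to 31, 56 to 63, 8 to 69 and 27 to 70. *Hes1* was below pituicytes a by the rule in each of these settings except without that cell (log2 ratio -0.91 in pool 1), and *Pomc* above except without the *Pomc*-rich cells and in cells of up to 2000 UMIs. TMM moved the median log2 ratio of all genes from -0.10 to -0.21 against a in pool 2 and from 0.00 to -0.12 against c in pool 1. The cause was not tested. All ratios were taken within a pool, so that they are paired by pool, and no test was made of them.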
